A study of Mus musculus with 6 samples.

Results

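The genes that make prostaglandins and leukotrienes were followed in mouse liver after ischemia-reperfusion (I/R). Arachidonate is cut from membrane phospholipids and then oxidised along 2 routes. Cyclooxygenases convert it to prostaglandin H2, which terminal synthases turn into prostaglandin E2, prostaglandin D2 or thromboxane. The lipoxygenase Alox5, helped by its membrane partner Alox5ap, converts it to leukotriene A4, from which the neutrophil attractant leukotriene B4 or the cysteinyl leukotrienes are formed. In liver, much of this machinery is carried by myeloid cells, while hepatocytes are known for breaking these lipids down.

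The set comprised 10 genes, selected by name: Pla2g4a, Ptgs1, Ptgs2, Ptges, Hpgds, Tbxas1, Alox5, Alox5ap, Lta4h and Ltc4s. These genes and the lists used below were chosen with earlier results of these data known. All 10 were found among the 15454 rows of the count table and the 21948 rows of the table of FPKM, in which fragments are scaled to transcript length and library size. RNA came from liver tissue, the lobe not being stated, of male C57BL/6 mice, 8 to 10 weeks old, in which 75% of the liver had undergone warm ischemia for 1 h and reperfusion for 6 h. The I/R group (n = 3) had received vehicle, and the I/R+Rk2 group (n = 3) had received ginsenoside Rk2, a saponin of ginseng. Both were injected intraperitoneally 2 days before the operation and again at the start of perfusion. By the study's account of its sequenced groups, Rk2 was given at the higher of the doses used, which the labels do not state. No allele is named for either group, and sham-operated livers were not analysed here.

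Libraries held 16809613 to 35618074 counts. Levels are normalised counts in units of 1e6 (CPM) of the library size after TMM scaling (edgeR's trimmed mean of M values), and 3 counts stood for 0.0888 to 0.184 CPM. Differences were tested with edgeR's quasi-likelihood F test over all 12411 genes that passed its filter on low counts, and a gene was called at an adjusted p below 0.05. Of the 10 genes, 8 passed that filter. Fewer cells of a type and less RNA per cell cannot be told apart in bulk liver tissue.

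The sequences just upstream of 4 of these genes are shown because the cyclooxygenase pair Ptgs1 and Ptgs2 parted in these livers, Ptges is the synthase coupled to Ptgs2, and Lta4h moved the other way. Windows from 250 bases before to 50 bases after the annotated start were taken from RefSeq (GRCm38.p6). It held 10 windows for 9 of the 10 genes, with more than 1 for Pla2g4a, and Alox5ap had no entry. The RefSeq start of Ptges lies inside the longer gene annotated by GENCODE (chromosome 2, 30889471 to 30929863, minus strand). Capitals mark matches, on either strand, to 1 of 5 motifs. They were the E-box CACGTG, the core TGACG of the cAMP response element, the AP-1 site TGANTCA, the core GAGGAA bound by ETS factors such as PU.1, and the box TATAAA that places the start. The 250 bases before each start, 5′ to 3′ on the gene's strand, are given with their position.
Ptgs2, chr1:150099781-150100030, plus strand: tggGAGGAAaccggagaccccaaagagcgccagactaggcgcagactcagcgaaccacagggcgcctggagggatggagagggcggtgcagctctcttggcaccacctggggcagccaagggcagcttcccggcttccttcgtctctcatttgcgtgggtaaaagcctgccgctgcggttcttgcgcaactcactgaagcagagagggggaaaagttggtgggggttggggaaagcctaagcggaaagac
Ptgs1, chr2:36230176-36230425, plus strand: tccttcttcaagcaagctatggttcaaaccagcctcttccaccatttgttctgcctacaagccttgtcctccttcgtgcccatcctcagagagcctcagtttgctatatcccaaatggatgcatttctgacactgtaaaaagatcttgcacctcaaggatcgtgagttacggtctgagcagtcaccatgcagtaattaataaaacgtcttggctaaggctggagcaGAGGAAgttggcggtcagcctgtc
Ptges, chr2:30903298-30903547, minus strand: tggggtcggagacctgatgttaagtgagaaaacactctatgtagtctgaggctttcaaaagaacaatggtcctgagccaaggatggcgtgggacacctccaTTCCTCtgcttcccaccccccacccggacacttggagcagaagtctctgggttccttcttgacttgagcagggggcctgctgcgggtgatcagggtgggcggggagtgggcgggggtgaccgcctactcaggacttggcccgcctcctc
Lta4h, chr10:93453146-93453395, plus strand: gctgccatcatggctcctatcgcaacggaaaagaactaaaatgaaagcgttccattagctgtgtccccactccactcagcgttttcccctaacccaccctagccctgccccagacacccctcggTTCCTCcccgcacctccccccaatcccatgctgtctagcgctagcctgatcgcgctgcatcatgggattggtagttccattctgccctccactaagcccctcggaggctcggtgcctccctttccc
Ptgs2, bases 9 to 30 after its start, chr1:150100039-150100060: cactaCGTCACGTGgagtccgc

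The short Ptgs2 stretch carries an E-box that overlaps the core of a cAMP response element on the opposite strand. Ptgs2 was the only 1 of the 9 genes whose window held either motif, which occurred in 7.15% and 20.8% of the 32851 RefSeq windows of that length. The GAGGAA core was found in the windows of 8 of the 9 genes, all except Pla2g4a, against 28.3% of all windows. TATAAA was found for Pla2g4a and Tbxas1 (13.6% of all windows) and an AP-1 site for Tbxas1 (7.81%). The TATAAA of Pla2g4a lay only in the window at 149922390 to 149922689, inside the gene. Its window at 149961241 to 149961540 held none of the motifs. The Tbxas1 window (38918736 to 38919035) also lay inside the gene annotated by GENCODE. The GAGGAA core thus lay in the windows of genes that fell, of Ptgs1, which did not pass the test, and of Lta4h, which rose. These matches are letters in a window, and binding was not measured.

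Of the 8 genes tested, 5 were lower in I/R+Rk2 (Pla2g4a, Ptgs2, Ptges, Tbxas1 and Alox5ap) and 1 was higher (Lta4h), while Ptgs1 and Alox5 did not pass. Over all genes tested, 23.7% were lower and 20.3% were higher by the same rule. Each of the 5 that fell did so more than 2-fold, a call made for 11.4% of all genes, and Lta4h rose by less than 2-fold (3.17% of all genes rose by more). The median log2 fold change of the 8 was -1.45, against -0.01 over all genes. Only Ptgs2, Alox5ap and Lta4h among the 6 called genes kept their call in every fit that left out 1 liver. The number of genes called lower was 2 without I/R replicate 3 and 3 when any other liver except I/R+Rk2 replicate 3 was left out.

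**Figure D1:**
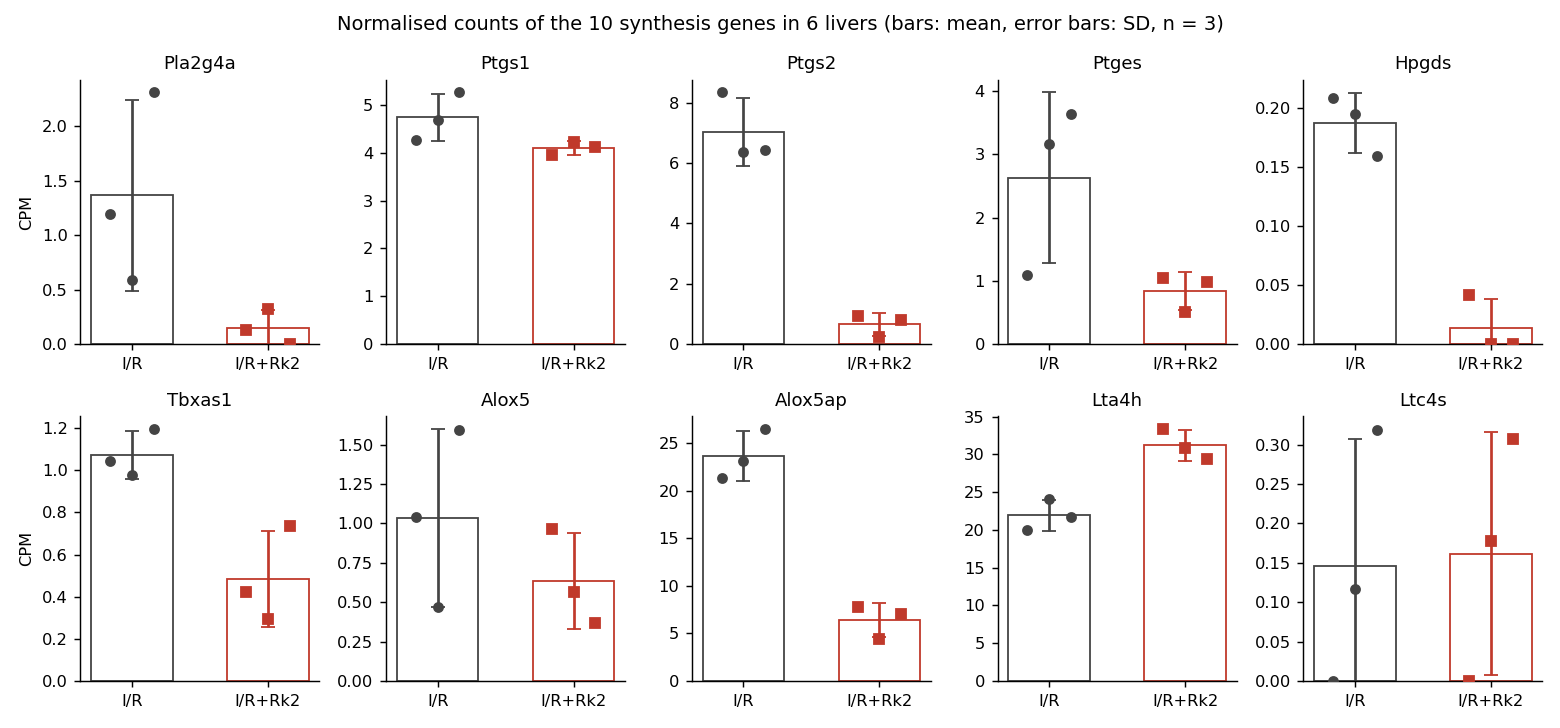
Normalised counts (CPM) of the 10 genes, 1 panel per gene with its own axis from 0. Each point is a liver, bars are means and error bars the SD of 3 livers, cut at 0. Ptgs2 and Alox5ap stand far apart between the groups, Lta4h is higher in every I/R+Rk2 liver, and Alox5 and Ltc4s overlap.

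The entry step is served by Pla2g4a, the cytosolic phospholipase that releases arachidonate (chromosome 1, 149829618 to 149961290, minus strand). It held 23, 15 and 58 counts in I/R replicates 1 to 3 and 3, 11 and 0 in I/R+Rk2 replicates 1 to 3, that is 1.2, 0.585 and 2.31 CPM against 0.126, 0.326 and 0 CPM. The groups did not overlap, nor did those of 7 of the 8 genes tested in all, against 57.4% of all genes, but I/R replicate 3 lay well above the other I/R livers. The fall was 7.51-fold, or -2.91 ± 0.80 (SE) on the log2 scale (edgeR adjusted p = 0.0229). This call did not hold without I/R replicate 1 (edgeR adjusted p = 0.0546), I/R replicate 3 (0.0817) or I/R+Rk2 replicate 1 (0.0607), and adjusted p-values of its alternatives lay between 0.0021 and 0.0817. Leaving out I/R replicate 3 gave -2.30, and leaving out I/R+Rk2 replicate 2 gave -4.12.

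Pla2g4a lies beside Ptgs2 on chromosome 1, with 138740 bases between them that hold 3 annotated genes and 0 protein-coding ones. Ptgs2 encodes cyclooxygenase-2, the inducible enzyme of the pair (150100031 to 150108227, plus strand). It had 160, 163 and 161 counts under I/R and 22, 8 and 13 with Rk2, or 8.34, 6.36 and 6.42 CPM against 0.925, 0.237 and 0.798 CPM. Every I/R liver was far above every I/R+Rk2 liver. Means were 7.04 ± 1.13 and 0.653 ± 0.366 CPM (SD, n = 3), an 11.3-fold fall or -3.50 ± 0.43 (SE) on the log2 scale (edgeR adjusted p = 0.00123). The call held in all 17 alternatives, with adjusted p-values of at most 0.00726.

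Ptgs1, the constitutive cyclooxygenase-1 (chromosome 2, 36230426 to 36252272), behaved otherwise. Its level was 4.28, 4.68 and 5.26 CPM under I/R and 3.95, 4.23 and 4.11 CPM with Rk2. The I/R livers were all slightly higher, but by little, and the gene did not pass (log2 fold change -0.21, 95% interval -0.57 to 0.15, edgeR adjusted p = 0.3). Its lower end lies above the upper end of the interval of Ptgs2, -4.50 to -2.49. Within a liver, the ratio of Ptgs2 to Ptgs1 counts does not depend on library scaling. It was 1.95, 1.36 and 1.22 under I/R and 0.234, 0.0559 and 0.194 with Rk2. These counts are not scaled to transcript length, so they compare livers and not the levels of both genes. In FPKM, Ptgs1 was above Ptgs2 in I/R replicate 2 (1.72 and 1.37 FPKM) and I/R replicate 3 (3.24 and 1.37 FPKM), and below it in I/R replicate 1 (1.88 and 1.995 FPKM). The ratio did not overlap between the groups, with a two-sided exact permutation p of 0.1, the smallest that 3 against 3 allows. With Ptgs2 already far apart and Ptgs1 nearly level, the ratio could not overlap, so its p-value adds nothing.

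The FPKM of Ptgs1 carries a further uncertainty. Dividing counts by FPKM and by library size gives the transcript length that the FPKM assumed, and for Ptgs1 it ran from 1.62 kb (I/R+Rk2 replicate 1) to 2.78 kb (I/R replicate 2). Alox5 spread similarly, from 2.02 to 3.88 kb. Ltc4s (0.633 to 0.949 kb) and Tbxas1 (3.68 to 5.15 kb) spread somewhat less, whereas Ptges stayed between 3.67 and 4.03 kb. Ptgs1, Tbxas1, Alox5ap and Ltc4s also share 144 to 268 exonic bases with a gene on the opposite strand, and the strand setting of the counting is not given in the sources used here.

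Among the terminal synthases, Ptges makes prostaglandin E2 from prostaglandin H2 and is commonly induced together with Ptgs2. It measured 1.09, 3.16 and 3.63 CPM under I/R and 1.05, 0.503 and 0.983 CPM with Rk2. The groups were only just apart, since I/R replicate 1 was close to I/R+Rk2 replicate 1. On the log2 scale the fall was -1.68 (standard error 0.50, edgeR adjusted p = 0.0315). The call was lost on leaving out I/R replicate 2 (0.0862), I/R replicate 3 (0.104), I/R+Rk2 replicate 2 (0.102) or I/R+Rk2 replicate 3 (0.0611, all edgeR adjusted p-values), and the lowest over its alternatives was 0.0083.

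Tbxas1 (chromosome 6, 38875404 to 39084585) makes thromboxane, which activates platelets and constricts vessels. It had 20, 25 and 30 counts under I/R and 10, 10 and 12 with Rk2, or 1.04, 0.976 and 1.2 CPM against 0.420, 0.296 and 0.737 CPM. All I/R livers were higher. The log2 fold change of -1.21 (standard error 0.39) passed narrowly, with an edgeR adjusted p of 0.0392, and 10 of 17 alternatives did not call it, among them DESeq2 (adjusted p = 0.0652) and each fit that left out 1 liver other than I/R+Rk2 replicate 3. Leaving out I/R replicates 1, 2 and 3 gave edgeR adjusted p-values of 0.1, 0.0769 and 0.121, and leaving out I/R+Rk2 replicates 1 and 2 gave 0.0951 and 0.134. The lowest over its alternatives was 0.011.

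Hpgds, the haematopoietic prostaglandin D2 synthase (chromosome 6, 65117293 to 65144908), lay near the limit of these libraries. It had 4, 5 and 4 counts under I/R and 1, 0 and 0 with Rk2, too few for the test. The ratio of I/R+Rk2 to I/R was 0.0728, with a 95% counting interval of 0.00171 to 0.485 that leaves out the spread between livers. With no filter on low counts its edgeR adjusted p was 0.0607. The 8 markers of mast cells and basophils, which carry this enzyme, summed to 4.57 to 6.30 CPM under I/R and 2.15 to 3.24 CPM with Rk2, almost wholly from Kit, which other cells also express. Kit held 5.79, 4.37 and 4.62 CPM under I/R and 3.24, 3.17 and 2.15 CPM with Rk2. The rest were too low to be tested in either group: Mcpt4, Fcer1a, Ms4a2 and Mcpt8 had no row in the count table, and Cpa3, Tpsb2 and Cma1 had at most 20 counts in a liver, with Cpa3 and Tpsb2 at 0 in I/R replicate 1 and in every I/R+Rk2 liver. Their part in the level of Hpgds was not tested.

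On the leukotriene side, Alox5ap, the membrane protein that presents arachidonate to 5-lipoxygenase (chromosome 5, 149264767 to 149288153), was the most abundant gene of the set per transcript length under I/R. Its level was 21.4, 23.1 and 26.5 CPM in those livers and 7.82, 4.38 and 7.0 CPM with Rk2. The groups were widely separated. Means of 23.7 ± 2.61 and 6.40 ± 1.79 CPM (SD, n = 3) gave a 3.73-fold fall, or -1.90 ± 0.22 (SE) on the log2 scale (edgeR adjusted p = 0.00108). All 17 alternatives called it, with adjusted p-values of at most 0.00628.

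Alox5 itself, the 5-lipoxygenase (chromosome 6, 116410077 to 116461178), had 20, 12 and 40 counts under I/R and 23, 19 and 6 with Rk2. The groups overlapped, and I/R replicate 3 and I/R+Rk2 replicate 3 held the extremes. Its log2 fold change of -0.68 had a 95% interval of -1.93 to 0.57 (edgeR adjusted p = 0.332), which takes in the fall of Alox5ap as well as no change.

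Lta4h, which hydrolyses leukotriene A4 to leukotriene B4 and is widely expressed, was the gene that rose (chromosome 10, 93453411 to 93484875). It measured 20.02, 24.1 and 21.7 CPM under I/R and 33.4, 30.9 and 29.4 CPM with Rk2. Each I/R+Rk2 liver was above each I/R liver. The rise was 1.42-fold (log2 fold change 0.51, standard error 0.11, edgeR adjusted p = 0.00807) and held in each fit that left out 1 liver. On log2(FPKM + 1) with limma it was smaller and did not pass (0.24, adjusted p = 0.166), and the FPKM of the groups overlapped, at 12.8, 13.8 and 11.7 against 17.4, 14.9 and 13.7. Adjusted p-values of its alternatives lay between 0.0013 and 0.172. Hepatocyte markers were divided, with 4 of 8 higher, 1 lower (Hnf4a, -0.52) and 3 that did not pass. Their sums of 61722 to 72716 CPM under I/R and 93743 to 117538 CPM with Rk2 were mostly Alb (44262 to 52469 CPM and 68876 to 88052 CPM), and their part in the rise of Lta4h was not tested.

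Ltc4s (chromosome 11, 50236461 to 50238616) joins leukotriene A4 to glutathione and opens the cysteinyl branch. It was at or near the limit, with 0, 3 and 8 counts under I/R and 0, 6 and 5 with Rk2. The groups held 11 counts each, a ratio of 0.946 with a 95% counting interval of 0.372 to 2.41 that leaves out the spread between livers. With no filter on low counts its log2 fold change was 0.015 with a standard error of 1.44. That is too wide to show a fall or a rise, also beyond the counting interval.

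Because Alox5ap fell and Lta4h rose, their ratio within a liver changed more than either gene. Alox5ap counts per Lta4h count were 1.07, 0.960 and 1.22 under I/R and 0.234, 0.142 and 0.238 with Rk2, without overlap (two-sided exact permutation p = 0.1, the smallest possible). Both genes were already apart between the groups, in opposite directions, so this ratio could not overlap and its p-value adds nothing. Compared per transcript length, the order of the genes shifted too. Under I/R the medians ran from Alox5ap (20.2 FPKM) and Lta4h (12.8 FPKM) through Ptgs1 (1.88) and Ptgs2 (1.37) to Ptges (0.824), Pla2g4a (0.446), Alox5 (0.385), Tbxas1 (0.243), Ltc4s (0.189) and Hpgds (0.0491 FPKM). With Rk2 Lta4h led (14.9 FPKM), followed by Alox5ap (4.78 FPKM) and Ptgs1 (1.55 FPKM), and Ptgs2 came after Ptges, Ltc4s and Alox5, with a median of 0.143 FPKM.

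Neighbours in that order did not all differ beyond their spread. Under I/R, Alox5ap was above Lta4h, Lta4h above Ptgs1, and Ptgs2 above Ptges in every liver, while Ptgs1 and Ptgs2 overlapped, as did each neighbouring pair from Ptges down to Hpgds. With Rk2 Lta4h, Alox5ap and Ptgs1 were separate from each other and from the rest, and every neighbouring pair below them overlapped.

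**Figure D2:**
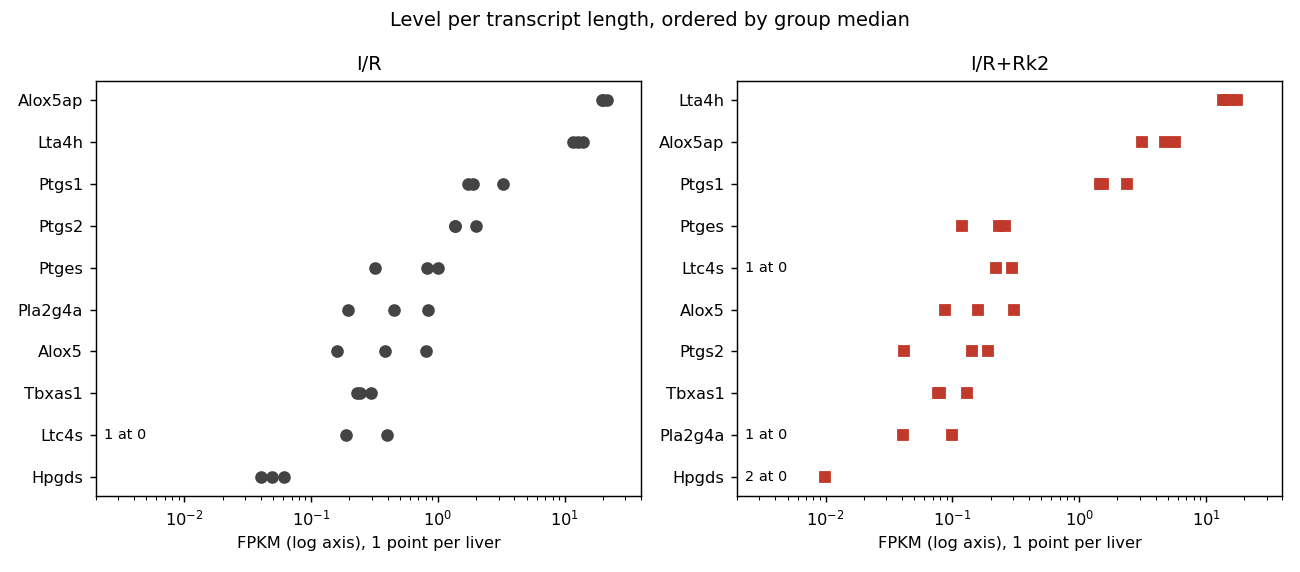
FPKM of the 10 genes on a log axis, 1 point per liver, ordered by the group median; livers listed at 0 are counted at the left edge. Ptgs2 drops from just below Ptgs1 in I/R to below Alox5 in I/R+Rk2, and Lta4h and Alox5ap change places.

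Markers of neutrophils and monocytes fell, as did 5 of the 8 tested genes of the set. Of 12 neutrophil markers, 11 were lower and 0 higher, with a median log2 fold change of -2.03, and they summed to 629 to 756 CPM under I/R and 122 to 273 CPM with Rk2. All 10 monocyte markers were lower (median -3.82), with sums of 365 to 449 CPM and 54.3 to 77.9 CPM once Fn1, which hepatocytes also make, was set aside after its values were seen. With Fn1 the sums were 1782 to 2125 CPM and 1173 to 1237 CPM. Among 10 Kupffer cell markers 1 was lower and 0 higher (median -0.46), with sums of 92.1 to 144 CPM against 75.8 to 92.7 CPM. Platelet and megakaryocyte markers had 1 of 6 tested members higher and 0 lower, with sums of 7.82 to 13.6 CPM against 11.7 to 16.4 CPM. Of 7 endothelial markers 3 were lower and 2 higher (median 0.25). Stellate cell markers had 2 of 6 lower and 0 higher (median -0.21), and cholangiocyte markers 2 of 5 lower and 0 higher (median -0.61). By the same rule 23.7% of all genes were lower. The part of any of these cells in the falls was not tested.

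Set against the summed neutrophil markers of the same liver, the genes separated. Alox5ap stood at 29.4, 36.8 and 35.1 CPM per 1000 CPM of neutrophil markers under I/R and at 28.7, 29.6 and 57.4 with Rk2, so the groups overlapped (two-sided exact permutation p = 0.9). Ptgs2 stood at 11.5, 10.1 and 8.49 under I/R and at 3.39, 1.60 and 6.55 with Rk2, still lower in every one. S100a8 and S100a9 weighed most in this sum, at 161 and 215 CPM in I/R replicate 1. The log2 fold changes of single markers ran from -1.09 (Retnlg) to -3.10 (Clec4e), and ratios to single markers were not computed. Tbxas1 and Ptges overlapped per summed neutrophil marker, as did Pla2g4a. Alox5, Ptgs1 and Lta4h were higher per neutrophil marker in every I/R+Rk2 liver, at 3.02 to 3.80 against 0.744 to 2.11 for Alox5. Because the marker sum itself fell, a gene that kept its level or rose had to come out higher in such a ratio. Against Kupffer cell markers, both Alox5ap (181, 251 and 184 against 84.3, 57.8 and 87.8 CPM per 1000 CPM) and Ptgs2 (70.7, 69.0 and 44.6 against 9.97, 3.13 and 10.0) stayed lower in every I/R+Rk2 liver. Against monocyte markers the answer turned on Fn1. With Fn1 in the sum, Alox5ap stood at 10.1, 12.99 and 12.5 under I/R and at 6.32, 3.57 and 5.97 with Rk2, whereas without Fn1 it stood at 58.5, 61.9 and 59.0 and at 100.3, 80.7 and 122, so its direction reversed. Ptgs2 was lower in every I/R+Rk2 liver on both scales, at 22.8, 17.01 and 14.3 against 11.9, 4.36 and 13.9 without Fn1, where the groups were only just apart. Pla2g4a was lower in every I/R+Rk2 liver with Fn1 and overlapped without it. The values without Fn1 were chosen after the data were seen and were not tested. Lyz2 weighed most in that sum, at 154, 142 and 206 CPM under I/R and 54.9, 41.0 and 42.6 CPM with Rk2. The log2 fold changes of its markers ran from -1.69 (Plac8) and -1.86 (Lyz2) to -5.61 (Vcan). The ratios without Fn1 therefore rest largely on Lyz2, and ratios without Lyz2 were not computed. Each tested ratio without overlap had a two-sided exact permutation p of 0.1, the smallest possible, or 0.18 after Benjamini-Hochberg adjustment over the 27 ratios computed.

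**Figure D3:**
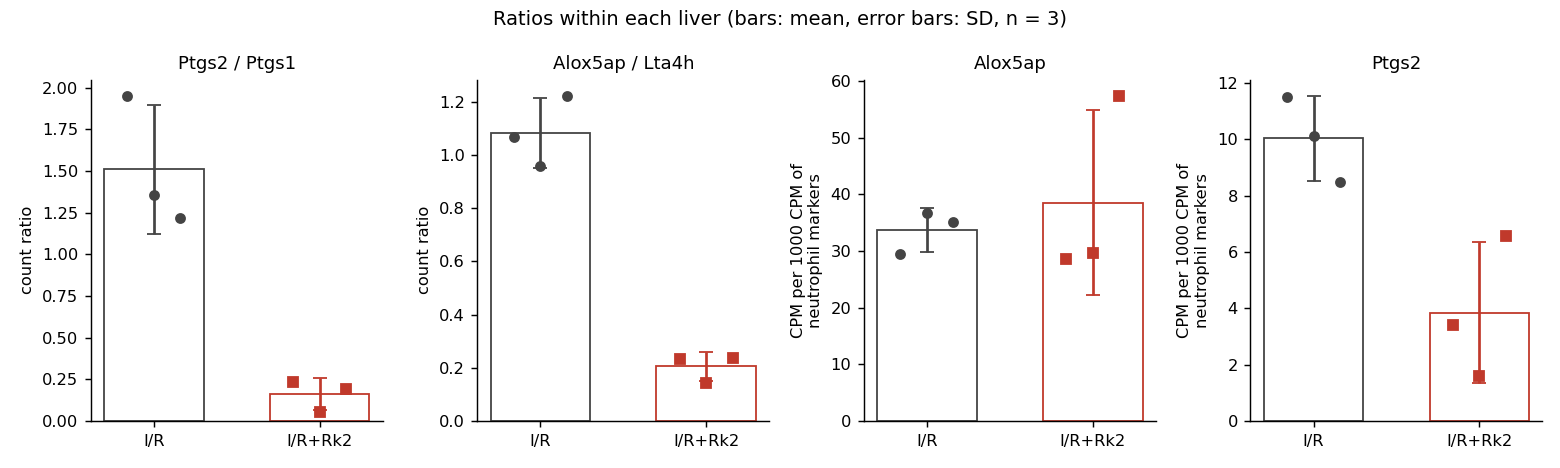
Ratios within each liver: Ptgs2 over Ptgs1 counts, Alox5ap over Lta4h counts, and Alox5ap and Ptgs2 CPM per 1000 CPM of the 12 neutrophil markers. Points are livers, bars means and error bars the SD of 3 livers; Alox5ap per neutrophil marker overlaps between the groups and the other ratios do not.

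The rest of the pathway was read from 61 further genes in 9 roles, of which 49 were found in the count table and 38 were tested. Of these, 15 were higher and 11 lower in I/R+Rk2, and 12 did not pass. The 38 had a median log2 fold change of 0.14. The share higher lay above the 20.3% and the share lower above the 23.7% of all genes. The number higher rested on settings, at 9 with library size alone, which moved the median of all genes from -0.01 to -0.17, 8 in each FPKM fit and 9 on leaving out I/R+Rk2 replicate 2. The part of the hepatocyte markers given above in these rises was not tested. Each role held only 2 to 7 tested genes, so the counts by role below are descriptions to be set beside those shares of all genes, and several, such as 2 of 7 or 1 of 6 lower, are close to them.

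For the supply of arachidonate, 4 of 5 tested release genes were higher and 0 lower. Faah, which hydrolyses anandamide, rose from 62.0, 62.0 and 69.2 CPM to 100.1, 106 and 93.7 CPM (log2 fold change 0.64, edgeR adjusted p = 0.00199). Daglb, a diacylglycerol lipase, rose by 0.73 on the log2 scale (edgeR adjusted p = 0.0037), though it shares 2309 exonic bases with Rac1 on the opposite strand. Pla2g6, a calcium-independent phospholipase, stood at 0.39 on the log2 scale (edgeR adjusted p = 0.0241), but was at -0.11 on log2(FPKM + 1) and lost its call without I/R replicate 1, I/R replicate 2, I/R+Rk2 replicate 2 or I/R+Rk2 replicate 3, at 0.0563 to 0.0725. The phospholipases Pla2g4c, Pla2g4e, Pla2g4f, Pla2g5, Pla2g10, Pla2g2e and Pla2g2f were listed at 0 in every liver. Among the genes that put arachidonate back into lipids, 2 of 5 were higher and 2 lower. Acsl3 (0.89) rose, while Acsl4, which prefers arachidonate (-0.55), and Lpcat2, a myeloid acyltransferase that also makes platelet-activating factor (-1.66), fell, with edgeR adjusted p-values of 0.00272, 0.00586 and 0.00606.

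Prostanoid synthases outside the set were divided, with 2 of 6 tested higher and 1 lower. The constitutive prostaglandin E synthases Ptges2 and Ptges3 did not pass, with log2 fold changes of -0.09 and -0.11 and 95% intervals of -0.36 to 0.19 and -0.31 to 0.08. They were named after their values were seen, as the partners of Ptges. Ptgis, the prostacyclin synthase, went from 4.54, 3.67 and 3.83 CPM to 0.883, 0.533 and 2.52 CPM (log2 fold change -1.70, edgeR adjusted p = 0.0326). I/R+Rk2 replicate 3 was the highest of its group, and only the fit without that liver kept the call among those that left out 1 liver, the other adjusted p-values being 0.0648 to 0.0983. Cbr1 (0.36, edgeR adjusted p = 0.0239) and Fam213b (0.52, 0.0455), both reductases of prostaglandins, passed in 7 and 6 of 17 alternatives. For prostanoid receptors, 2 of 3 tested were lower. Ptger2, a receptor for prostaglandin E2 (-2.12, edgeR adjusted p = 0.0311), and Ptgir, the prostacyclin receptor (-1.35, 0.0367), had at most 34 counts in a liver and each passed in 11 of 17 alternatives, and Ptger4 did not pass (-0.70, 0.126).

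Enzymes that remove these lipids were higher in 3 of 7 cases and lower in 2. The pair of cytochrome P450 enzymes that hydroxylate leukotriene B4 went opposite ways. Cyp4f14, the form of hepatocytes, rose from 155, 163 and 158 CPM to 271, 263 and 222 CPM (log2 fold change 0.67, edgeR adjusted p = 0.00238). Cyp4f18, the form of neutrophils, fell from 5.06, 4.60 and 5.50 CPM to 2.23, 0.859 and 1.41 CPM (-1.77, edgeR adjusted p = 0.00588). Ptgr1, which oxidises leukotriene B4 and reduces keto metabolites of prostaglandins, rose by 1.01 on the log2 scale (edgeR adjusted p = 0.0108). Hpgd, the dehydrogenase that inactivates prostaglandins, was named after its values were seen. It had 60.7, 36.6 and 40.9 CPM in I/R and 69.3, 87.0 and 70.9 CPM in I/R+Rk2 (log2 fold change 0.72, edgeR adjusted p = 0.0238), and the call did not hold without I/R replicate 2 (0.0647), I/R replicate 3 (0.0766) or I/R+Rk2 replicate 2 (0.0732).

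Ltb4r1, the high-affinity leukotriene B4 receptor of neutrophils, fell from 2.45, 3.47 and 4.15 CPM to 0.715, 0.563 and 0.798 CPM (log2 fold change -2.30, standard error 0.29, edgeR adjusted p = 0.0014). No I/R+Rk2 liver came near the I/R range. The low-affinity receptor Ltb4r2 did not pass (0.85, 95% interval -0.45 to 2.16, edgeR adjusted p = 0.248), and the cysteinyl receptors Cysltr1 and Cysltr2 had at most 8 counts in any liver.

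In the cysteinyl branch 2 of 5 tested genes were higher and 2 lower. Dpep2, a dipeptidase that turns leukotriene D4 into E4, had 58, 110 and 59 counts under I/R and 4, 3 and 2 with Rk2, or -4.65 on the log2 scale (edgeR adjusted p = 0.000458), although its exons are shared with neighbouring annotations. Ggt5, which turns leukotriene C4 into D4, fell by 1.78 on the log2 scale (edgeR adjusted p = 0.00367). Mgst3, a microsomal glutathione transferase, rose by 0.86 (edgeR adjusted p = 0.00526). Both epoxide hydrolases, Ephx2 (0.56, edgeR adjusted p = 0.0144) and Ephx1 (0.44, 0.0198), were higher, in 16 and 9 of 17 alternatives, and Ephx2 did not pass without I/R+Rk2 replicate 2 (0.0548).

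Of the other lipoxygenases, 1 of 3 tested was lower. Aloxe3, an epidermal hydroperoxide isomerase, had 105, 44 and 44 counts under I/R and 0 in each liver given Rk2, which is at least 22.4-fold lower when 3 counts per library are taken as the floor (edgeR adjusted p = 0.00425). The bound leaned on I/R replicate 1 and was 13.05-fold without it. Alox15 did not pass. It held 127 counts in I/R replicate 3 and 46 in I/R+Rk2 replicate 2 against 4 to 10 in the other livers, and its log2 fold change of -1.58 was 0.95 without I/R replicate 3. Alox12 did not pass either (-0.09, edgeR adjusted p = 0.805).

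**Figure D4:**
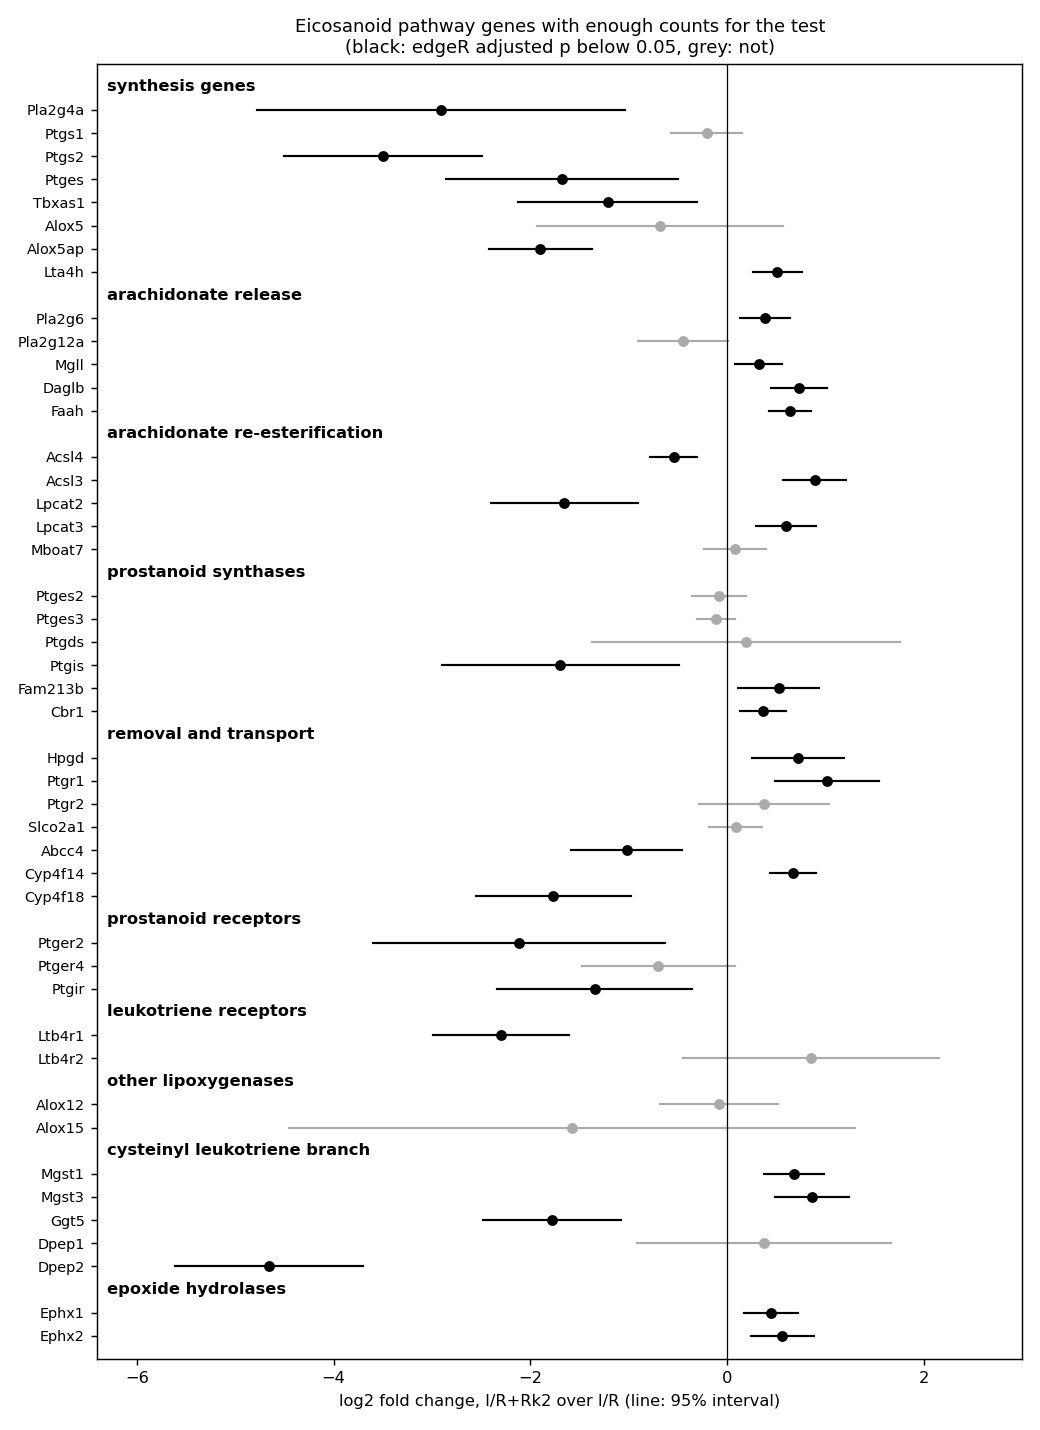
Log2 fold changes (I/R+Rk2 over I/R) with 95% intervals for the 8 tested synthesis genes and 37 of the 38 tested genes of the other roles; Aloxe3 is left out because it had 0 counts in I/R+Rk2. Black marks an edgeR adjusted p below 0.05 and grey the rest, with Ptgs2 and Alox5ap at the left and Lta4h at the right of 0.

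By Pearson's r of log2(CPM + 1) over the 6 livers, the genes outside the set whose pattern was most like that of Ptgs2 were Mettl6, Tox2 and B430306N03Rik, each at 0.998 or more, and 1985 of 11385 genes compared had an r above 0.9. For Alox5 they were Rps27a (0.985), Cttnbp2nl (0.965) and Rnf217 (0.964), and 30 genes lay above 0.9. The livers share their group, and no test was made of these values.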

How the data were processed

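Liver RNA (250 ng per mouse) was sequenced in 6 livers, 3 per group. Per the submitters' processing notes, the authors used FastQC 0.11.5, HISAT2 2.2.1 and StringTie 1.3.3 with build mm10; annotation, counter and strand setting are not given in the sources used here. They deposited whole-number counts per gene and, separately, FPKM. The 10 genes and all lists were chosen with earlier results of these data known. Counts were tested in R 4.3.3 with edgeR 4.0.16 (filterByExpr, TMM, quasi-likelihood F test, no covariates, 6 livers), with Benjamini-Hochberg adjustment over 12411 genes. Standard errors are the absolute log2 fold change over the square root of F. The fit was also run on simulated counts in which few genes changed, in balanced directions. That setting differs from these livers, where 43.9% of genes were called, so it does not vouch for the calls. Alternatives, whose adjusted p-values are pooled in the ranges given, were other scalings and filters, DESeq2 1.42.0, limma 3.58.1 on log2 FPKM, a replicate block, removal of the trend with GENCODE M21 exon length (98.4% of genes matched) and leaving out each liver. Of other pathway genes, at most the 3 with the smallest p per role are named, unless stated otherwise. The p-values measure only the spread between these 6 samples; chi-square per degree of freedom between livers of a group was 31.4 to 74.8, far above sampling noise. Intervals on counts cover counting error only, and PCR copies are not independent molecules. Coordinates are GRCm38.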

Additional observations from a re-analysis of the deposited data

How the results depend on the processing

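Ptgs2, Alox5ap, Ptgs1 and Alox5 kept their direction and their side of the threshold in all 17 alternatives, and no gene of the set changed direction. When 1 liver was left out, log2 fold changes ran from -4.12 to -2.30 for Pla2g4a, -2.02 to -1.37 for Ptges, -1.58 to -0.91 for Tbxas1, -3.95 to -3.01 for Ptgs2, -2.09 to -1.67 for Alox5ap and 0.45 to 0.58 for Lta4h. The number of the 10 genes called lower ran from 2 to 4 and the number called higher was 1 in each of those fits. Calls were lost on log2(FPKM + 1) with no filter for Pla2g4a (-0.49), Ptges (-0.49) and Lta4h (0.24), and with a mean FPKM of at least 0.1 for Tbxas1 (-0.20) and Lta4h (0.24, or 0.26 with a pseudocount of 0.1), so 0 genes were called higher in the 3 FPKM fits. Tbxas1 was also lost with no filter on counts (-1.20), with DESeq2 (-1.19) and with the transcript length trend removed (-1.03). Of the other pathway genes, 8 to 11 were lower and 9 to 13 higher when 1 liver was left out; 9 were higher with library size alone and 8 in each FPKM fit. Pla2g6 turned to -0.11 or -0.12 in the FPKM fits, while on leaving out 1 liver Alox15 ran from -3.23 to 0.95 (without I/R replicate 3) and Alox12 from -0.26 to 0.080 (without I/R replicate 2). Same-numbered livers did not deviate together (correlations of deviations -0.0649 to -0.0021), so the replicate block pairs them by number only. With the replicate block, 2 of the 10 genes were called lower, as Pla2g4a (-2.75), Ptges (-1.57) and Tbxas1 (-1.22) were not called, and 4713 rather than 5454 of all genes passed. The causes were not tested. Ptges, Tbxas1, Pla2g4a and Alox5 had at most 91 counts in a liver and Hpgds and Ltc4s at most 8. Such counts leave their values coarse. Of other genes with few counts, Ggt5 and Ltb4r1 were called in all 17 alternatives, and Ptger2 and Ptgir in 11. The part of depth in the lost calls was not tested.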
